A study of Drosophila melanogaster with 18 samples.

Results

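The genes described here are 10 genes of intraflagellar transport in *Drosophila melanogaster*, chosen by name and followed across the adult life of the fly's ear: nompB, rempA, btv, Oseg1, Oseg2, Oseg4, Oseg5, Oseg6, che-13 and Klp64D. All 10 were found among the 16624 genes of the expression table, and all 10 reached at least 10 normalised read counts in every library. The RNA came from the second antennal segment, the seat of the fly's hearing organ (Johnston's organ, JO), dissected from virgin flies of the wild-type laboratory strain Canton-S. Both sexes were sampled 1, 5, 25 and 50 days after eclosion and males also after 10 days, and each of these 9 groups has 2 libraries, 18 in all. No mutant, transgene or treatment was involved, and the study profiled these ages to learn which transcripts vary while the ear still works. The labels do not say whether the paired libraries came from separate cohorts of flies, so p-values measure the spread between libraries, which may be technical.

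Intraflagellar transport carries cargo along the microtubules of a cilium, and a cilium that lacks it does not assemble or keep its length. Kinesin-2 moves trains of the IFT-B particle outwards to the tip, and dynein-2 brings trains back with the help of the IFT-A particle. The auditory neurons of JO are ciliated, and their cilia carry the ion channels Nan, Iav and NompC that turn antennal movement into current. Loss of these genes in the fly leaves the sensory cilia short, misshapen or absent.

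The IFT-B particle is represented by 4 genes. Oseg2 encodes the fly IFT172 and lies at chr3L:2229646-2235253 on the plus strand, and nompB encodes IFT88 and lies at chr2L:21578292-21589423 on the minus strand. Oseg5, the IFT80 gene, is at chr2L:20832849-20835840 on the minus strand, and che-13, the IFT57 gene, is at chr2L:3530789-3532678 on the plus strand. The IFT-A particle is represented by 4 genes as well, all on the minus strand. They are rempA (IFT140, chr2L:553742-560310), Oseg1 (IFT122, chr3L:8407268-8412825), Oseg4 (IFT121, chr3L:1730993-1735767) and Oseg6 (IFT144, chr2R:19487046-19491846). The 2 motor genes are Klp64D, a motor subunit of kinesin-2 at chr3L:5356864-5359392, and btv, the heavy chain of dynein-2 at chr2L:17962625-17982472, both on the minus strand. Positions are those of the Ensembl annotation of the dm6 assembly and span each whole gene, exons and introns together.

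Exons of some members overlap those of neighbouring genes, and the sources used here do not state whether reads were counted by strand. On the opposite strand, 14.6% of the exon bases of Oseg1 are shared with Exo70 and 1.83% with CG13667, and 11.1% of those of rempA are shared with Tspo. Oseg4 shares 2.78% of its exon bases with drpr on the same strand and Oseg5 shares 0.428% with CG31674 on the opposite strand. Reads from those stretches cannot be told apart, and the values of Oseg1 and rempA carry this limit.

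Libraries held 5815182 to 14315927 reads in genes (median 12194186). A member was covered by 72 to 1120 reads in a library (median 253.5), which puts the counting error near 11.8% of the value at the lowest and near 6.28% at the median. PCR copies without molecular identifiers are not independent molecules, so this covers counting error only. The summed level of 9 neuronal and JO channel genes ran from 19121 to 33453 normalised counts over all libraries. Most of them (elav, nSyb, Syt1, para, fne and futsch) are general neuronal genes, so this sum does not set JO apart from other neurons. The JO channel genes ran from 491 to 967 (nompC), from 663 to 1442 (iav) and from 375 to 784 (nan). Other tissue was present too. Orco, the co-receptor of the ciliated olfactory neurons in the neighbouring distal segment, ran from 523 to 2859 normalised counts, and the rhodopsin gene ninaE from 145 to 79450. At day 50 the 2 labelled sexes were not cleanly marked. Male replicate 2 held 25444 counts of the female transcript Yp1 beside 21999 of the male transcript roX1, and female replicate 2 held 19045 of Yp1 beside 16418 of roX1. In bulk tissue, fewer ciliated cells and less of a transcript per cell cannot be told apart, and the part of these other cells in the members' values was not tested.

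The level of the members differed more between genes than between ages. Per kilobase of exon, Klp64D had the highest mean at 269 ± 46.5 normalised counts (SD, n = 18) and was above che-13, the next gene in the order, in all 18 libraries. The IFT-B genes che-13 (147 ± 23.5) and nompB (108 ± 23.5) came next on this scale. The IFT-A gene Oseg6 averaged 82.2 ± 17.5 normalised counts per kilobase and the IFT-B gene Oseg5 averaged 73.1 ± 19.1. Oseg2 averaged 53.8 ± 16.8 and Oseg1 averaged 50.7 ± 12.8 normalised counts per kilobase. The lowest were Oseg4 (36.3 ± 9.13), rempA (34.5 ± 7.20) and btv (21.3 ± 5.53), so that on this scale the motor genes stood at both ends. The order depends on the division by exon length. Before it, btv averaged 273 normalised counts, between Oseg1 (242) and Oseg2 (283), che-13 averaged 219, and Oseg4 was lowest at 150. How evenly reads covered long transcripts was not tested. Not every neighbour was separated. Oseg2 was above Oseg1 in 10 of 18 libraries, Oseg4 was above rempA in 7 and Oseg6 was above Oseg5 in 12, whereas the other 6 neighbouring pairs kept their order in 15 to 18 libraries.

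**Figure D1:**
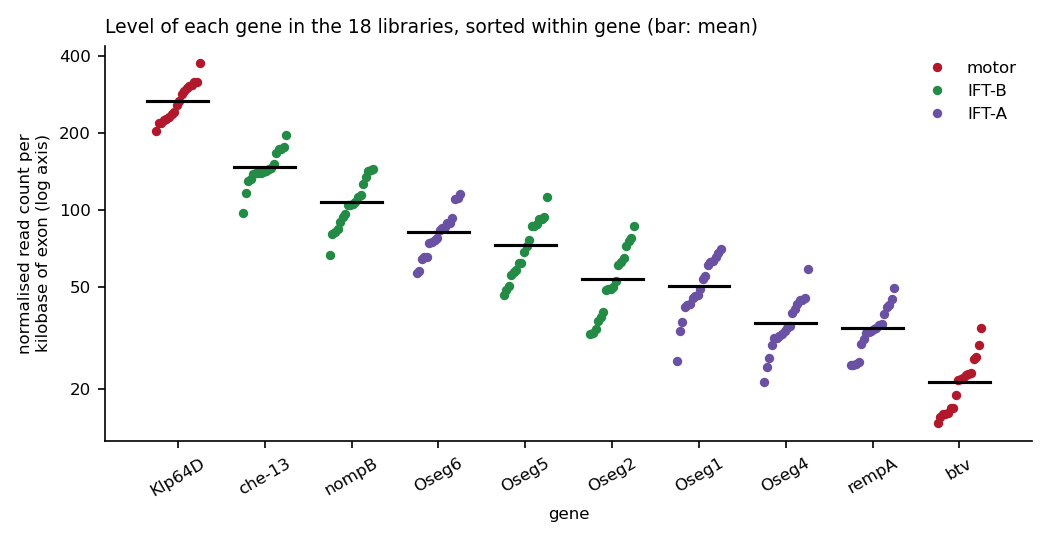
Normalised read count per kilobase of exon (log axis) of the 10 genes, with 1 point for each of the 18 libraries sorted within a gene and a bar at the mean. Klp64D averages 269 and btv 21.3, and the IFT-B genes che-13 and nompB lie above all 4 IFT-A genes by mean.

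Within a gene, the highest library was 1.83 times the lowest for Klp64D and 2.77 times the lowest for Oseg4, with the other 8 genes in between. The coefficient of variation over the 18 libraries was smallest for che-13 (15.9%) and largest for Oseg2 (31.2%). Summed per kilobase over its members, IFT-B averaged 340 ± 13.6 normalised counts at day 1, 395 ± 58.9 at day 5, 457 ± 23.9 at day 10 (n = 2, males), 359 ± 40.3 at day 25 and 396 ± 81.1 at day 50 (SD, n = 4 otherwise). IFT-A averaged 174 ± 10.9, 204 ± 15.8, 213 ± 48.4, 223 ± 30.02 and 209 ± 46.2 at the same ages. The spread between libraries was smallest at day 1 for both particles and the sums of days 5, 25 and 50 overlapped one another.

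**Figure D2:**
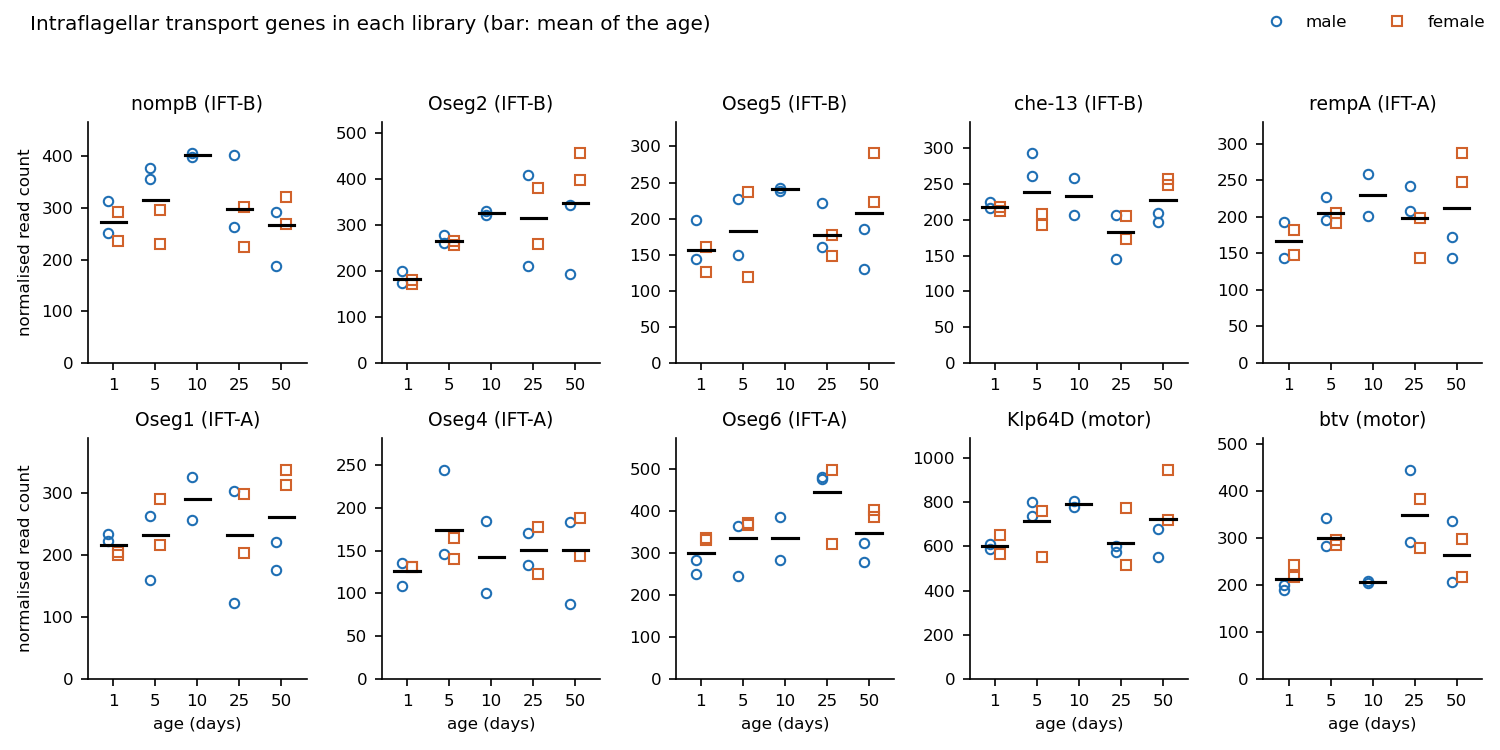
Normalised read counts of each gene by age in days, with circles for male and squares for female libraries and a bar at the mean of each age. Oseg2 averages 182 at day 1 and 348 at day 50, btv is highest at day 25 with a mean of 349, and che-13 spans 145 to 293 over all libraries.

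Changes were tested in a limma fit on log2 values over all 14663 genes that passed the filter on low values, with Benjamini-Hochberg adjustment, and a gene was called when its adjusted p was below 0.1 and its fold change above 1.5. A single F test over days 1, 5, 25 and 50 asked whether a gene varied with age at all, and 3 of 10 members passed it (Oseg2, btv and Oseg6) against 57.6% of all genes. edgeR and DESeq2 on the recovered reads also passed 3 members each. The median F of the members was 1.32, against 3.72 over all genes tested. The other 7 members had adjusted p-values between 0.194 (che-13) and 0.814 (Oseg1) in that test.

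Oseg2, whose product IFT172 regulates, in Chlamydomonas, the turnaround of trains at the ciliary tip, was the member that varied most with age (limma F test, adjusted p = 0.0172). Its 4 libraries of day 1 held 201, 174, 173 and 181 normalised counts (both males first, here and for the genes below), and the 4 of day 5 held 261, 278, 265 and 257. Males of day 10 held 323 and 331. At day 25 the values spread to 410, 211, 381 and 260, and at day 50 to 195, 344, 456 and 398. All day 5 and day 10 libraries lay above all day 1 libraries, and at day 50 male replicate 1 fell back among the values of day 1. Day 50 averaged 348 ± 112 and day 1 averaged 182 ± 13.1 normalised counts (SD, n = 4 each). The difference was 0.87 on the log2 scale (95% interval 0.41 to 1.33) with an adjusted p of 0.00873 from limma, and 3 of 4 day 50 libraries lay above every day 1 library. Oseg2 was the only one of the 10 members called in that comparison, in which 9.21% of all genes were called as higher. edgeR and DESeq2 made the same single call. Without male and female replicate 2 of day 50, the difference was 0.71 with an adjusted p of 0.0722.

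btv, the dynein-2 heavy chain, varied with age in the F test (adjusted p = 0.0381) and did not follow Oseg2. It held 199, 189, 243 and 216 normalised counts at day 1, and 342, 282, 284 and 295 at day 5, with no overlap between these ages. In males of day 10 it was at 205 and 208, as low as at day 1. It reached 292, 445, 278 and 383 at day 25 and held 206, 337, 297 and 217 at day 50. In males, day 25 averaged 369 ± 108 and day 10 averaged 206 ± 1.82 (SD, n = 2 each), and this rise of 0.80 on the log2 scale (95% interval 0.21 to 1.39) passed with an adjusted p of 0.0501 by limma. It was the only member called of 10, and 16.8% of all genes were called as higher in that comparison. edgeR and DESeq2 each called 1 member there. The call ended when male day 25 replicate 2 was left out (0.50, adjusted p = 0.371) and when either day 10 library was left out (0.79 and 0.81, adjusted p = 0.144 and 0.166). In the same comparison 4 of 9 neuronal and JO channel genes were lower, against 12.2% of all genes called as lower. They summed to 22952 and 19121 normalised counts in males of day 25 and to 31120 and 28444 in males of day 10. Muscle markers were lower in 4 of 6 and glial markers in 2 of 5. The libraries of these males held 5815182 and 6414483 reads at day 25 and 12508707 and 12123464 at day 10. The part of these differences in the btv result was not tested. The F test of btv was lost without male day 25 replicate 2 (adjusted p = 0.104) or female day 25 replicate 2 (adjusted p = 0.108).

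btv is by far the longest member, with 12821 bases of exon against 1484 to 5772 in the others, and the libraries differed in the relative level of long and short transcripts. The median deviation of genes with over 6000 exon bases, less that of genes with under 1500, was 0.33 and 0.09 on the log2 scale in males of day 25, against -0.12 and -0.09 in males of day 10. It ran from -0.33 to 0.16 at day 1, from 0.06 to 0.32 at day 5 and from -0.35 to -0.10 at day 50. It was higher in males of day 25 than in males of day 10, as btv was, although male day 25 replicate 2, with more btv than replicate 1 (445 against 292), had the lower value (0.09 against 0.33). The part of this measure in the btv result was not tested.

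Oseg6, an IFT-A gene that takes part in the return of trains, passed the F test narrowly (adjusted p = 0.0696). It was at 284, 251, 337 and 331 normalised counts at day 1, at 364, 246, 370 and 367 at day 5, and at 284 and 386 in males of day 10. It was highest at day 25, with 482, 477, 322 and 499, and at day 50 it held 278, 324, 403 and 385. In 3 of 4 libraries, day 25 was above every library of the other ages, and female replicate 1 of day 25 was not. The F test of Oseg6 was lost in 6 of 18 fits that left out a library, with adjusted p-values of 0.104 to 0.294. These libraries were male day 1 replicate 2, both females of day 1, both males of day 25 and female day 25 replicate 2. It was also lost in the fit without replicate 2 of both sexes at day 50 (adjusted p = 0.106).

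Between day 5 and day 1, the time over which a young adult matures, 0 of 10 members were called by limma, edgeR or DESeq2, against 13.5% of all genes in either direction. All 10 estimates were positive, with a median of 0.21 on the log2 scale against 0.03 for all genes, and 2 members, Oseg2 and btv, had an unadjusted p below 0.05. Oseg2 was at 0.54 (95% interval 0.08 to 1.00, adjusted p = 0.121) and btv at 0.50 (0.09 to 0.92, adjusted p = 0.109). Over the 27 other settings, 8 to 10 members stayed positive and their median stayed between 0.21 and 0.31. For the 10 members the intervals reached from -0.45 (Oseg1) to 1.00 (Oseg2). Markers of other cells moved in the same comparison. All 6 muscle markers were lower (limma, against 8.78% of all genes called as lower), with a summed level of 7959 to 10353 normalised counts at day 5 and 49788 to 81064 at day 1. Of 6 hemocyte markers 5 were lower. Of 4 genes of scolopale and support cells 2 were lower, and their median difference was -0.37. These 4 summed to 12766 to 16181 at day 5 and 55846 to 63849 at day 1. Among them alphaTub85E alone held 122 to 264 at day 5 and 24868 to 34428 at day 1. The 9 neuronal and JO channel genes had a median difference of 0.15 and summed to 28185 to 33453 at day 5 and 24915 to 29380 at day 1. The measure of long and short transcripts given above for btv ran from -0.33 to 0.16 at day 1 and from 0.06 to 0.32 at day 5. The part of that measure or of these cells in the members' estimates was not tested.

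Between day 25 and day 5, 0 of 10 members were called by limma, edgeR or DESeq2, against 12.7% of all genes. The members went both ways, with 3 positive and a median of -0.06 on the log2 scale against -0.02 for all genes. Over the 27 other settings 2 to 6 were positive and the median lay between -0.11 and 0.05, with 6 positive and 0.05 when male day 25 replicate 2 was left out. The 2 with an unadjusted p below 0.05 had opposite signs: che-13, an IFT-B gene, was at -0.38 (95% interval -0.73 to -0.03, adjusted p = 0.146) and Oseg6 at 0.40 (0.03 to 0.76, adjusted p = 0.152). che-13 held 145, 207, 205 and 174 normalised counts at day 25 and 261, 293, 193 and 208 at day 5. The 2 ages of che-13 overlapped through the female libraries of day 5.

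Between day 50 and day 25, 0 of 10 members were called by limma, edgeR or DESeq2, against 27.2% of all genes. None had an unadjusted p below 0.05. The median was 0.10 on the log2 scale with 6 positive, against -0.04 for all genes, and its sign was not stable. Over the 27 other settings 4 to 8 members were positive and the median lay between -0.03 and 0.26. It was -0.03 without replicate 2 of both sexes at day 50, and also without male day 25 replicate 2. The nearest to the threshold were btv at -0.41 (95% interval -0.82 to 0.01, adjusted p = 0.127) and Oseg6 at -0.35 (-0.71 to 0.02, adjusted p = 0.137). Klp64D, the kinesin-2 subunit, averaged 725 ± 165 at day 50 and 617 ± 111 normalised counts at day 25 (SD, n = 4 each), a difference of 0.22 with an interval of -0.11 to 0.55.

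Over the whole span, day 50 against day 1, 9 of 10 members had positive estimates with a median of 0.24 on the log2 scale, against -0.05 for all genes, and Oseg2 alone was called. nompB was the negative one at -0.05 (95% interval -0.46 to 0.36). It averaged 268 ± 57.6 normalised counts at day 50 and 274 ± 36.0 at day 1. The genes between them included Oseg5 at 0.36 (-0.15 to 0.87), rempA at 0.31 (-0.08 to 0.70) and Oseg1 at 0.23 (-0.30 to 0.76). This comparison shares its libraries with the steps above, so its values are not further evidence for them. All 6 muscle markers were lower here as well (12.8% of all genes were called as lower), with sums of 3616 to 4602 at day 50 and 49788 to 81064 at day 1, whereas the 9 neuronal and JO channel genes summed to 24150 to 29351 at day 50 and 24915 to 29380 at day 1.

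**Figure D3:**
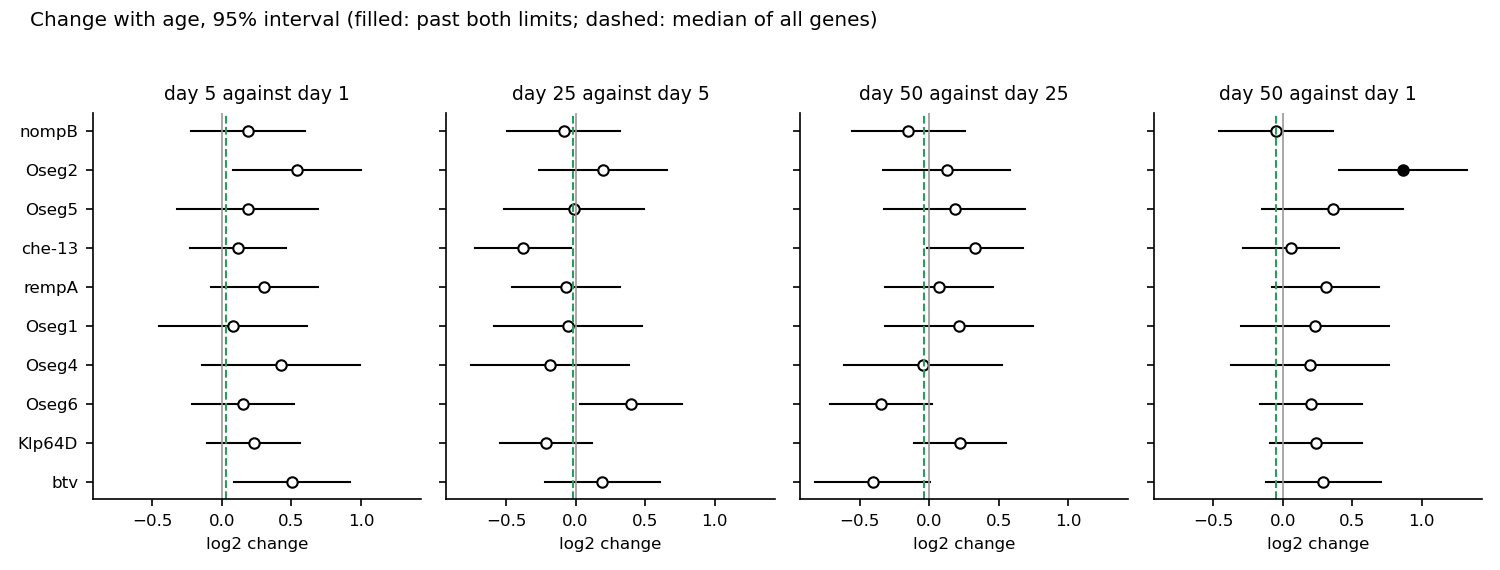
Log2 change of the 10 genes in 4 comparisons of ages, both sexes together, with 95% intervals, filled where both limits were passed and with a dashed line at the median of all genes. Oseg2 at day 50 against day 1 (0.87) is the filled point, and all 10 points lie right of 0 for day 5 against day 1.

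Males were also sampled at day 10. Against day 5 this age gave 0 of 10 members called by limma, edgeR or DESeq2, where limma called 0% of all genes (983 genes had an unadjusted p below 0.05, and no member did). DESeq2 called 56 genes there. btv had the lowest estimate, -0.59 (95% interval -1.17 to 0.00), with 205 and 208 normalised counts at day 10 and 342 and 282 at day 5. nompB, by contrast, was at 406 and 400 in males of day 10 and at 378 and 356 in males of day 5. The libraries of day 50 held 188 and 293 in males and 270 and 322 in females, and males of day 25 held 403 and 263. The difference of nompB between day 10 and day 50 was not tested.

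Males and females of days 1, 5 and 25 were compared over 6 libraries each. 0 of 10 members were called by limma, edgeR or DESeq2, against 3.14% of all genes, and none had an unadjusted p below 0.05. nompB had the largest estimate, 0.30 on the log2 scale for males over females (95% interval -0.03 to 0.63, adjusted p = 0.567), and that of btv was 0.00 (-0.34 to 0.34). Day 50 was left out of this comparison because of the sex transcripts given above.

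Within each sex the same fit was read for 2 libraries against 2. In males, 0 members were called for day 5 against day 1 (1 at an unadjusted p below 0.05, 7.24% of all genes called) and 0 for day 50 against day 1 (0 at that p, 15.1% of all genes called). For day 25 against day 5, where 14.7% of all genes were called, 2 members were called in opposite directions. che-13 fell by 0.67 on the log2 scale (adjusted p = 0.0785), with 145 and 207 normalised counts in males of day 25 and 261 and 293 in males of day 5. Oseg6 rose by 0.68 (adjusted p = 0.0936), with 482 and 477 in males of day 25 and 364 and 246 in males of day 5. Each of these calls was lost when any of the 4 libraries was left out, except that of Oseg6 without male day 5 replicate 1. For day 50 against day 25, where 17.2% of all genes were called in males, Oseg6 fell by 0.67 (adjusted p = 0.0885), with 278 and 324 normalised counts in males of day 50 and 482 and 477 in males of day 25, and that call was lost without any of its 4 libraries. Adjusted p-values over these leave-outs reached 0.372 for che-13, and 0.554 and 0.294 for the 2 calls of Oseg6. The calls of Oseg6 were also lost in some fits without a library of another group, with adjusted p-values of up to 0.112.

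In females, 0 members were called for day 5 against day 1 (0 at an unadjusted p below 0.05, 9.98% of all genes called), 0 for day 25 against day 5 (0 at that p, 0.246% of all genes called) and 0 for day 50 against day 25 (1 at that p, rempA, 6.87% of all genes called). For day 50 against day 1, 19.1% of all genes were called and 2 members, both higher. Oseg2 held 456 and 398 normalised counts in females of day 50 and 173 and 181 in females of day 1, a rise of 1.27 on the log2 scale (95% interval 0.62 to 1.92, adjusted p = 0.0126). rempA, the IFT140 gene of IFT-A, held 287 and 247 in females of day 50 and 148 and 182 in females of day 1, a rise of 0.70 (0.15 to 1.24, adjusted p = 0.0874). The call of rempA was lost without any of the 4 libraries it rests on, with adjusted p-values of up to 0.344, and without any library of day 5 (0.101 to 0.104), and that of Oseg2 was kept in all 24 settings run. In males the change of Oseg2 from the same fit was 0.47 (-0.18 to 1.12, adjusted p = 0.393).

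Whether the sexes differed in these changes was tested by the interaction term. For day 5 against day 1, day 25 against day 5 and day 50 against day 25, limma passed 0 of 10 members each and 0%, 0% and 0% of all genes, and edgeR and DESeq2 also passed no member. For day 50 against day 25 all 10 estimates of the male less the female change were negative, with a median of -0.51 on the log2 scale against 0.01 for all genes, and 1 member, rempA, had an unadjusted p below 0.05 (-1.16, 95% interval -1.93 to -0.39, adjusted p = 0.999). These estimates share the 4 libraries of day 50, and male replicate 1 of day 50 was the lowest of its age in 9 of 10 members. In that library the summed level of 8 retina genes was 148953 normalised counts, against 5672 to 118079 in the other 3, and that of 9 neuronal and JO channel genes was 24150, against 27742 to 29351. The summed level of 9 olfactory genes, markers of the neighbouring segment with its ciliated neurons, was 2999 there, against 5269 to 8861 in the other day 50 libraries. The part of retina RNA or of olfactory cells in these values was not tested. Without that library, Oseg2 at day 50 against day 1 was at 1.07 on the log2 scale (adjusted p = 0.00312).

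**Figure D4:**
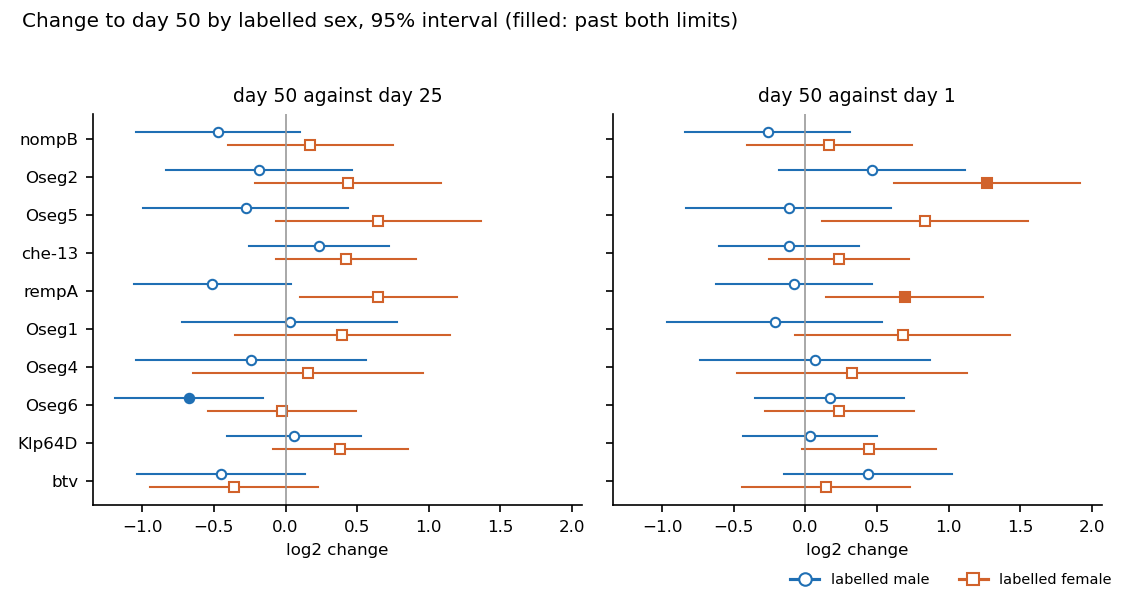
Log2 change of the 10 genes to day 50 from day 25 (left) and from day 1 (right), with 95% intervals, circles for libraries labelled male and squares for libraries labelled female, filled where both limits were passed. Filled points are Oseg6 in males against day 25 (-0.67) and Oseg2 (1.27) and rempA (0.70) in females against day 1.

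Among themselves the members moved together only in part. Over the 45 pairs, Pearson's r of the log2 values across the 18 libraries had a median of 0.28 and was positive in 37. The extremes were Oseg6 with che-13 (r = -0.54, Spearman's rho -0.44) and btv with Oseg6 (r = 0.64, rho 0.63). Klp64D ran with Oseg5 (0.61), che-13 (0.59), Oseg2 (0.56) and nompB (0.54), that is with all 4 IFT-B genes. With the IFT-A genes, Klp64D had r values of -0.14 (Oseg6), 0.17 (Oseg4), 0.41 (Oseg1) and 0.47 (rempA). These values are a description, since the libraries share ages, cell makeup and transcript coverage.

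**Figure D5:**
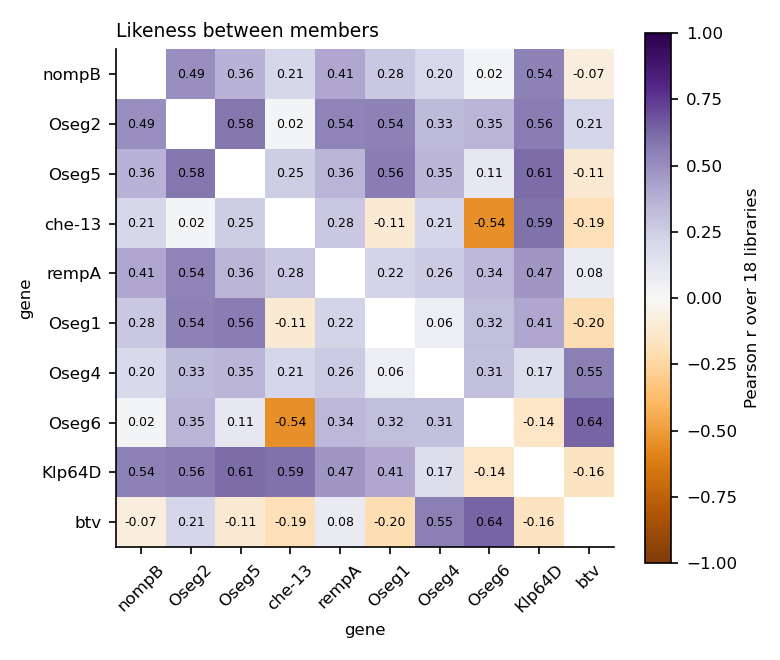
Pearson's r between the log2 values of each pair of the 10 genes over the 18 libraries, from -1 (orange) to 1 (purple). btv and Oseg6 run together (0.64) and che-13 runs against Oseg6 (-0.54).

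Of 10317 other genes with a mean of at least 50, those most like the mean of the members' standardised values over the 18 libraries were CG33056 (r = 0.863), CG9628 (0.855), CG31125 (0.853), CLIP-190 (0.851), which encodes a microtubule plus-end protein, and CG14020 (0.843). Of the members themselves, Oseg2 had the highest r with that mean (0.81) and che-13 the lowest (0.30), although each member is part of it.

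Other genes of the cilium gave the setting. Of 8 further IFT particle genes in the table, limma, edgeR and DESeq2 each called 0 for day 5 against day 1 and for day 25 against day 5. None had an unadjusted p below 0.05 there. Their medians were 0.19 and 0.04 on the log2 scale, and limma called 13.5% and 12.7% of all genes. For day 50 against day 25, limma called 27.2% of all genes in either direction. IFT43 of the IFT-A particle rose there by 0.76 (adjusted p = 0.0323) and IFT52 of the IFT-B core fell by 0.65 (adjusted p = 0.0650). IFT43 averaged 290 ± 73.3 normalised counts at day 50 and 169 ± 35.0 at day 25, and IFT52 averaged 224 ± 55.4 at day 50 and 355 ± 94.3 at day 25 (SD, n = 4 each). For day 50 against day 1, limma called 9.21% of all genes as higher. IFT46 of IFT-B rose there by 0.75 (adjusted p = 0.0176), at 445 ± 160 and 252 ± 59.3 normalised counts. Without replicate 2 of both sexes at day 50, IFT52 was the 1 further particle gene still called between day 50 and day 25, and 0 were called between day 50 and day 1. When single libraries were left out in turn, the calls of IFT43, IFT46 and IFT52 were lost in 3, 2 and 5 of 18 fits. Of the other 2 subunits of kinesin-2, Klp68D passed the F test over ages (adjusted p = 0.0532) and Kap3 did not (adjusted p = 0.814). Neither was called in the 4 pairwise comparisons of ages with both sexes together. Klp68D fell by 0.86 in males of day 25 against day 10 (limma, adjusted p = 0.0165), where 12.2% of all genes were called as lower. That call was lost without male day 25 replicate 2 or male day 10 replicate 2. In that comparison Klp64D was at -0.43 (95% interval -0.90 to 0.04).

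The list for the BBSome, a coat that loads membrane proteins onto the trains, had 6 genes in the table. They include Arl6, the small GTPase that recruits this coat in mammals and is not a subunit of it. BBS8 rose at day 5 against day 1 (0.61, limma, adjusted p = 0.0132), where 4.69% of all genes were called as higher. At day 50 against day 1 BBS9 rose (0.76, adjusted p = 0.00567) and Arl6 fell by 0.64 (adjusted p = 0.0171). In that comparison 9.21% of all genes were called as higher and 12.8% as lower. Of 10 genes of the transition zone and basal body, unc (1.31, adjusted p = 0.0294) and dila (0.97, adjusted p = 0.0202) rose at day 5 against day 1. At day 50 against day 1, Cep290 (0.74, adjusted p = 0.00239) and dila (0.63, adjusted p = 0.0969) rose and B9d1 fell by 0.91 (adjusted p = 0.0329). The call of dila at day 50 against day 1 was lost in 14 of 18 fits that left out a library, with the difference between 0.32 and 0.94 over all settings and adjusted p-values of up to 0.399. B9d1 also fell by 0.89 at day 25 against day 5, where 12.7% of all genes were called in either direction. Cep135 fell by 0.84 at day 50 against day 25, where 17.4% were called as lower. With 6 and 10 genes on these lists, so few calls beside these shares are no result about the lists. In fits that left out a library, the calls of BBS8 and Arl6 were each lost in 3 of 18. Those of unc and dila at day 5 against day 1 were each lost in 2. That of B9d1 was lost in 4 at day 25 against day 5 and in 1 at day 50 against day 1.

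The 10 genes of axonemal motility, which drive the active movement of the JO cilium, were called at several steps. At day 5 against day 1, 3 of 10 rose, where 4.69% of all genes were called as higher. They were the dynein heavy chains Dhc36C (0.84, adjusted p = 0.000927) and Dhc93AB (0.59) and the assembly factor tilB (0.77). The call of Dhc93AB was lost in 4 of 18 fits that left out a library and that of tilB in 10. At day 25 against day 5, 3 of 10 rose against 8.76% of all genes: Dhc62B (0.90, adjusted p = 0.00813), Dhc98D (0.68, lost in 4 of 18 such fits) and Dnah3 (0.70). The same 3 genes fell at day 50 against day 25, by 1.04, 0.98 and 0.63, where 17.4% of all genes were called as lower, and 1 of them, Dhc62B, was still called without replicate 2 of both sexes at day 50. The call of Dnah3 at day 50 against day 25 was also lost in 3 of 18 fits that left out a library. Dhc62B averaged 573 ± 78.0 normalised counts at day 50, 1211 ± 325 at day 25 and 629 ± 64.4 at day 5 (SD, n = 4 each). The forkhead factor fd3F, which switches on motility genes in chordotonal neurons, rose by 0.85 at day 25 against day 5 (adjusted p = 0.0164) and fell by 0.96 at day 50 against day 25 (adjusted p = 0.00604). In males of day 25 against day 10, 4 of 10 motility genes rose against 16.8% of all genes: Dhc98D (1.56), Dhc62B (1.20), Dhc16F (1.14) and Dnah3 (0.91). Each of these 4 calls was lost without male day 25 replicate 2 (adjusted p of 0.121 to 0.184), and that of Dhc16F also without male day 10 replicate 1. In that comparison fd3F (0.85) and the centriole gene Cep135 (0.80) also rose, and Rfx, another regulator of ciliary genes, fell by 0.67, and these 3 calls too were lost without male day 25 replicate 2. At day 50 against day 1, Dhc36C (0.74) and the assembly factor Zmynd10 (0.61) rose, where 9.21% of all genes were called as higher. nan, 1 of 4 genes of the ciliary channels and tubby, fell by 0.65, where 12.8% were called as lower. The calls of Zmynd10 and nan were lost without replicate 2 of both sexes at day 50. Over all settings the change of Zmynd10 lay between 0.42 and 0.74 and that of nan between -0.75 and -0.53. Whether the motility genes differed from the transport genes in their change was not tested. By the F test over ages, 7 of 10 motility genes and 6 of 10 of the transition zone passed. So did 3 of 6 of the BBSome list with Arl6, 1 of 2 other kinesin-2 subunits and 3 of 8 further particle genes. Beside them, 3 of 10 members and 57.6% of all genes passed. Heavy-chain genes are long, and the measure of long transcripts given above for btv ran from -0.33 to 0.16 at day 1. It ran from 0.06 to 0.32 at day 5, from 0.05 to 0.33 at day 25 and from -0.35 to -0.10 at day 50.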

How the data were processed

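RNA of the second antennal segment was amplified by the authors with SMART-Seq v4, made into libraries with Nextera XT and sequenced in pairs. Per the labels and the study's methods, reads were aligned to dm6 in Partek and counted per gene with HTSeq, with versions not given in the sources used here. The deposited signal values are counts per gene that the authors divided by a DESeq2 size factor per library, called normalised read counts here, beside a mean over all libraries as deposited signal. The factors were inferred here, with the smallest non-zero value of each library taken as a single read. Dividing by that value gave whole reads for 100% of values (tolerance 0.01). The deposited log2 fold changes, p-values, adjusted p-values and Wald statistics, a score, come from the authors' own DESeq2 comparisons and were not used.

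Values were analysed as log2 of the deposited value plus 1, so that fold changes of low genes are understated, in genes with at least 10 in at least 2 libraries. limma 3.58.1 (trend) in R 4.3.3 was fitted with 1 coefficient per age and sex (9 residual degrees of freedom). The alternatives used TMM scaling, the count tests of edgeR 4.0.16 and of DESeq2 1.42.0 on recovered reads, other pseudocounts (0.5 and 5) and filters (none, or a mean of at least 50), age and sex as added terms, no fold limit, and leaving out libraries. Within-sex counts, and list counts without replicate 2 of both sexes at day 50, were added after seeing the data. Data were simulated for day 50 against day 25 with 14406 genes, of which 14206 were unchanged and 50 changed at each fold. Of genes changed 1.5-fold 22% were called, of those changed 2-fold 68% and of those changed 4-fold 98%, as were 0.0845% of unchanged genes. In the data, limma called 3992 of 14663 genes in this comparison. The cutoff on p that the adjustment sets was therefore not the same, and these shares do not carry over to the members.

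The members, the gene lists and the tests were chosen with earlier results of these data known. All members are named. Of each list of cilium genes, those called are named, up to 4 per list and comparison with the largest changes. Lists were matched by name, synonym or gene identifier, and 20 listed names were not matched. Exon lengths and positions came from Ensembl release 115. Values per kilobase divide by the union of annotated exons.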

Additional observations from a re-analysis of the deposited data

Results flagged for a closer look

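Oseg6 was flagged at day 5 and day 25, each time for 1 library far from the other 3 of its age. Male replicate 2 of day 5 held 246.5 normalised counts against 364 to 370 in the others, and female replicate 1 of day 25 held 322 against 477 to 499. These are 2 of 40 groups of 4 libraries examined, and chance flags about 1 group in 20 by this criterion.

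For 3 genes the male libraries of 2 ages differed one way without overlap and the female libraries the other way. The interaction term passed for none of them. The share of all genes with such a pattern was not counted, so it is no result about the members. The male less the female change of rempA was -1.16 on the log2 scale for day 50 against day 25 (limma, adjusted p = 0.999). That of Oseg1 was -0.89 for day 50 against day 1 (adjusted p = 0.535). That of che-13 was 0.43 for day 5 against day 1 (adjusted p = 1) and -0.35 for day 50 against day 1 (adjusted p = 0.697). The 3 that involve day 50 rest on labels of sex that the transcripts Yp1 and roX1 do not bear out in 2 of 4 libraries.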

How the results depend on the processing

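No called change reversed. The members' median difference, for which no test was made, changed sign in 3 comparisons. For day 50 against day 25 it was 0.10 on the log2 scale and lay between -0.03 and 0.26 over 27 alternatives, for day 25 against day 5 it was -0.06 and lay between -0.11 and 0.05, and for males of day 10 against day 5 it was 0.12 and lay between -0.01 and 0.21, the lowest without male day 5 replicate 2. The counts of members called stayed at 0 for day 5 against day 1, day 25 against day 5, day 50 against day 25, males day 10 against day 5 and males against females, and at 1 for day 50 against day 1, in all 28 alternatives, and the interaction count stayed at 0 in all 26. The count passing the F test over ages ran from 1 to 3 when libraries were left out in turn, with 1 without female day 25 replicate 2, and was 2 or 3 otherwise. The count for males of day 25 against day 10 ran from 0 to 2 over the leave-outs, with 2 without male day 25 replicate 1. The cause was not tested. The change of Oseg2 at day 50 against day 1 stayed between 0.66 and 1.07 on the log2 scale with adjusted p-values of 0.000897 to 0.0722 over 27 alternatives. Over all genes, limma called 3992 for day 50 against day 25, and 1762 without replicate 2 of both sexes at day 50. For males day 25 against day 10 it called 4254, and 65 without male day 25 replicate 2. No paired analysis was possible because the deposited labels and columns carry no replicate numbers, and the numbers used here follow accession order and only name libraries. Estimated changes under 1.5-fold could not be called, since the rule requires a larger one. On simulated data 22% of genes changed 1.5-fold were called, but far fewer genes changed there than were called in the data. That share does not carry over to the members.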
